A study of Mus musculus with 5 samples.

Results

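The ATP-binding cassette (ABC) genes of subfamilies A to G were examined in mouse liver and liver tumours. The genes were chosen by symbol: every array probe set whose single gene symbol was Abc, a letter from a to g and a number entered, except Abcd3, which was not analysed here. For a gene with more than 1 probe set, the one brightest on average over the 5 arrays was taken. This gave 47 genes from 48 probe sets, among 19938 genes on the array with a single-symbol probe set. The gene with 2 probe sets was Abcb5.

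The arrays were hybridised with RNA of whole liver tissue from male mice about 10 months old, fed regular food. The 2 control samples were normal liver with 1 floxed and 1 wild-type Hdac3 allele (Hdac3FL/+). The 3 null samples were liver tumours from mice with 1 floxed and 1 null allele (Hdac3FL/-). Both groups carried AlbCre, a Cre recombinase driven by the albumin promoter and so active in hepatocytes. Control hepatocytes therefore also lose the floxed allele and keep 1 working copy of Hdac3, the histone deacetylase under study. Tumour tissue was taken only from null mice and normal tissue only from controls, so the loss of Hdac3 and the tumour state cannot be told apart. Whether each array came from a separate mouse is stated only as biological replication in the labels. If it did not, p-values measure only the spread between these samples.

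ABC transporters use ATP to move molecules across membranes. In hepatocytes, those of the canalicular membrane secrete bile salts, phospholipid, sterols and conjugated drugs into bile. Those of the basolateral membrane, which faces the blood, return bile salts and conjugates to the circulation, and the levels of some are known to rise when bile flow is impaired. Others load cholesterol onto lipoproteins, or act inside mitochondria, peroxisomes and lysosomes, and the E and F subfamilies transport nothing and serve the ribosome.

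All values are the deposited log2 expression values of a probe set, and changes are tumour minus control on that scale, so that 1 unit is 2-fold. A gene was called risen or fallen at a limma adjusted p under 0.05, with the test fitted over all 19938 genes. Array medians lay between 5.66 and 5.77. Hdac3 itself fell by 1.62 (limma adjusted p = 0.00298), and its 3 tumour values all lay below both control values. RMA values compress large differences, and a probe set's level cannot be set against that of another gene. In tissue RNA, fewer cells of a type and less RNA per cell cannot be told apart.

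Of the 47 ABC genes, 6 rose and 6 fell. The risen genes were Abcc4, Abcb1a, Abcg3, Abcc1, Abcg1 and Abcb4, and the fallen genes were Abca8a, Abcc6, Abcb10, Abcg2, Abcc2 and Abcb6. The 12 called genes made up 25.5% of the members, against 10.6% of all genes tested. Calls upward made up 12.8% of members against 5.6% of all genes, and calls downward 12.8% against 4.96%. Values of tumours and controls did not overlap for 28 members, or 59.6%, against 44.2% of all genes. The median change of the members was −0.07, close to the −0.02 of all genes, while the median of the absolute change was 0.51 against 0.20. Members thus spread to both sides of 0 about a centre near that of all genes. Calls of at least 2-fold numbered 6 up and 4 down, where 3.75% and 2.82% of all genes were so called. Only Abcc1 and Abcc4 kept their call when control 1 or control 2 was left out, where 0.647% and 0.542% of all genes remained called.

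**Figure D1:**
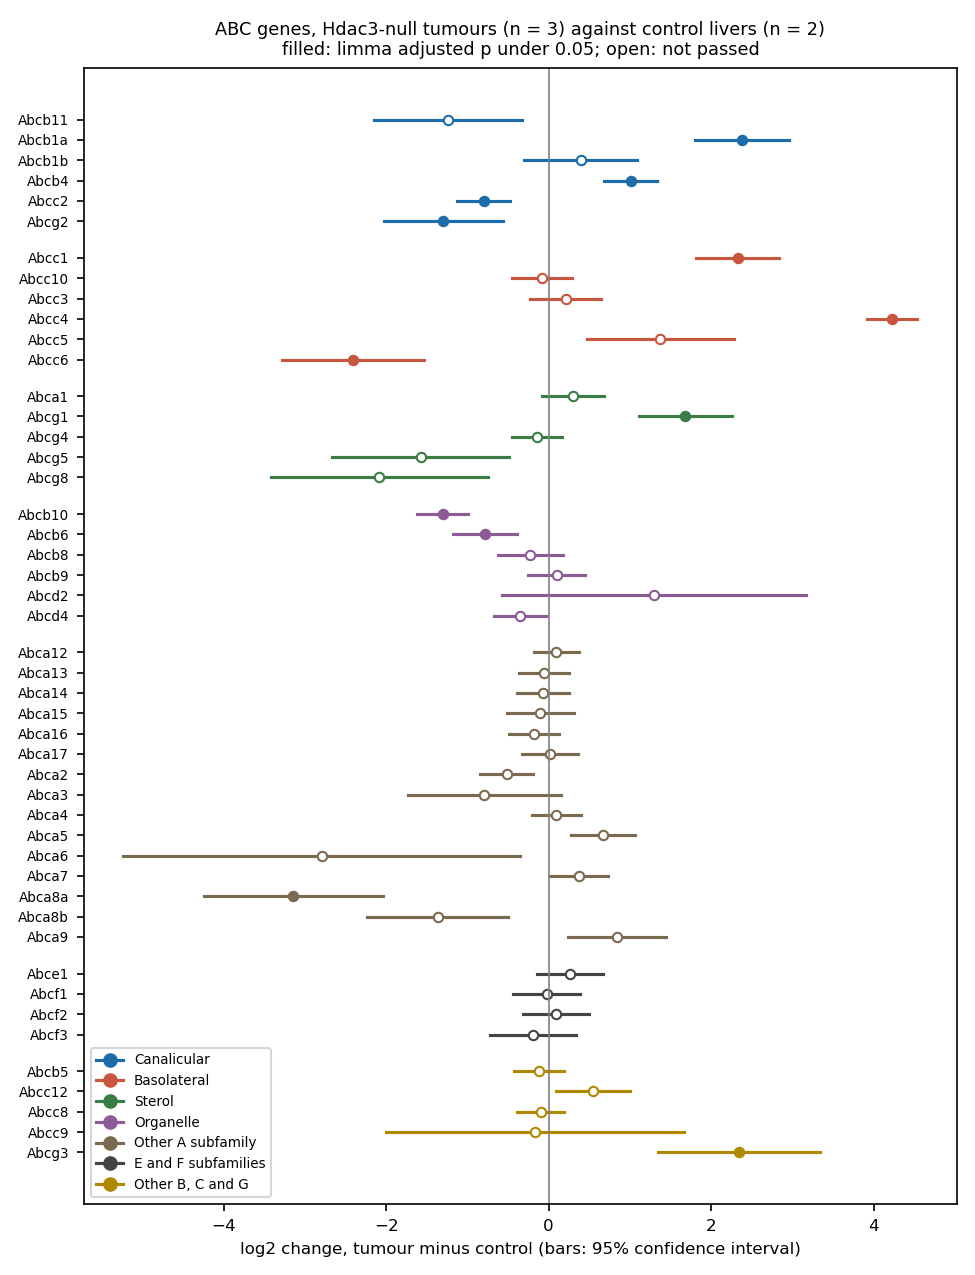
Log2 change of each of the 47 genes in the 3 tumours against the 2 control livers, with 95% confidence intervals of the limma fit, grouped by role. Filled points passed an adjusted p of 0.05; Abcc4 lies farthest to the right at 4.23 and Abca8a farthest to the left at −3.14.

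**Figure D2:**
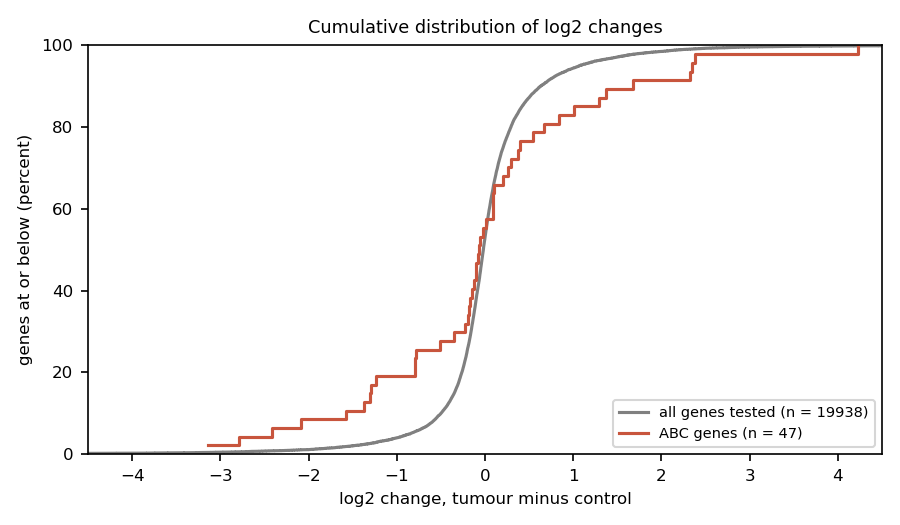
Percent of genes at or below each log2 change, for the 47 ABC genes (red steps) and all 19938 genes tested (grey). The ABC curve is flatter on both sides of 0, with a median absolute change of 0.51 against 0.20; the x axis is limited to changes between −4.5 and 4.5.

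Abcg5 (−1.57) and Abcg8 (−2.08), whose pump is also canalicular, were counted with the sterol transporters. Both were lower in all 3 tumours but did not pass. The other 6 canalicular transporters did not move as a block: 2 rose, 2 fell and 2 did not pass, with a median change of −0.20. Of all genes tested, 5.6% rose and 4.96% fell. Over so few genes of both signs the median moved to −0.10 without control 2 or tumour 2, to −0.30 without control 1 and to −0.33 without tumour 3. Abcb4, the floppase that puts phosphatidylcholine into bile, measured 10.40 in control 1 and 10.29 in control 2, against 11.39, 11.45 and 11.22 in tumours 1 to 3 (log2). All 3 tumours were above both controls, and the change was 1.01 (SE 0.13; 95% confidence interval 0.69 to 1.33; limma adjusted p = 0.0102), or 2.01-fold.

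Abcb1a, a multidrug efflux pump of broad specificity (P-glycoprotein), stood at 6.45 and 6.47 in the controls and at 8.92, 9.19 and 8.41 in the tumours. It was higher in all 3 tumours, by 2.38 (SE 0.24; interval 1.80 to 2.96; limma adjusted p = 0.00466), or 5.20-fold. Its close paralogue Abcb1b had 4.52 and 4.89 in the controls and 4.86, 4.82 and 5.63 in the tumours. The groups overlapped for Abcb1b, and its change of 0.39 did not pass (interval −0.30 to 1.09; limma adjusted p = 0.467). These genes lie near each other on chromosome 5, and Abcb1b is directly followed by Abcb4 in the RefSeq gene order. Their sequences are similar, so probes may share signal between them.

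Abcc2, which exports bilirubin glucuronides and glutathione conjugates into bile, had 11.51 and 11.56 in the controls and 10.88, 10.61 and 10.71 in the tumours. All 3 tumours were lower, and it fell by 0.80 (SE 0.13; limma adjusted p = 0.0202). Abcg2, an exporter of urate, porphyrins and drugs, had 9.31 and 9.61 in the controls and 7.89, 8.75 and 7.87 in the tumours. It fell by 1.29 (SE 0.30; limma adjusted p = 0.0487), with tumour 2 nearest the controls. The Abcg2 call ended on renormalisation by quantiles (adjusted p = 0.0504), on a shift of the arrays to a common median (0.0506), without tumour 1 (0.092) and without tumour 3 (0.0608), and that of Abcc2 ended without tumour 2 (0.0572).

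Abcb11, the bile salt export pump and the main driver of bile flow, had 11.46 and 11.47 in the controls against 10.80, 10.40 and 9.49 in tumours 1 to 3. Each tumour lay below both controls, and the 3 tumours spanned 1.31 units where the controls spanned 0.01. Its change of −1.23 did not pass the test (interval −2.15 to −0.32; limma adjusted p = 0.0977). Without tumour 3, the lowest, the change was −0.86 and passed (limma adjusted p = 0.0272), and without tumour 1 it was −1.52 (adjusted p = 0.046). Without tumour 2 it was −1.32 and did not pass (adjusted p = 0.164).

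**Figure D3:**
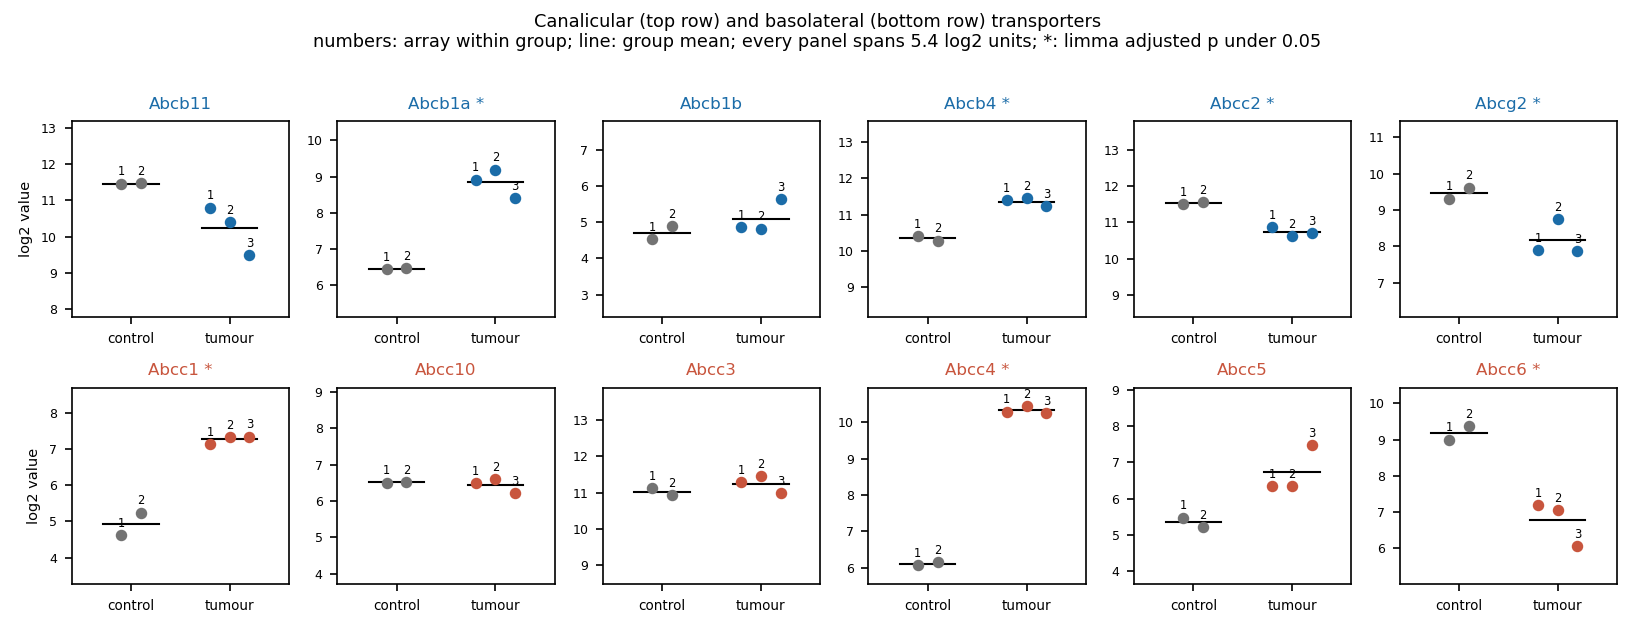
Log2 value of each canalicular (top) and basolateral (bottom) gene on the 5 arrays, controls in grey and tumours in colour, numbered by array, with group means as lines and panels of equal span. The tumour points of Abcc4 lie between 10.26 and 10.44 against 6.06 and 6.15 in the controls, and those of Abcb11 spread downward from 10.80 to 9.49.

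On the basolateral side 2 of 6 transporters rose, 1 fell and 3 did not pass, with a median change of 0.79. Of all genes tested, 5.6% rose and 4.96% fell. Abcc4, which exports bile salts together with glutathione, cyclic nucleotides and prostaglandins, had the largest rise of the family. The controls measured 6.06 and 6.15 on the log2 scale, the tumours 10.30, 10.44 and 10.26. The 3 tumours lay within 0.18 units of each other and the change was 4.23 (SE 0.13; interval 3.92 to 4.54; limma adjusted p = 0.000156), an 18.8-fold difference. This call held with any 1 array left out, at a highest adjusted p of 0.0148 and changes between 4.18 and 4.28.

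Abcc1, an exporter of glutathione conjugates and leukotrienes that adult hepatocytes express little, had 4.62 and 5.24 in the controls and 7.12, 7.31 and 7.34 in the tumours. It rose by 2.33 (SE 0.21; interval 1.82 to 2.84; limma adjusted p = 0.00378), and its highest adjusted p with any 1 array left out was 0.039. Abcc5, an exporter of cyclic nucleotides, had 5.48 and 5.22 in the controls and 6.35, 6.35 and 7.48 in the tumours. The tumours were all above the controls, with tumour 3 apart, and the change of 1.38 did not pass (interval 0.47 to 2.28; limma adjusted p = 0.0723). Without tumour 3 it was 0.997 and passed (limma adjusted p = 0.0105). It did not pass without tumour 1 (adjusted p = 0.0704) or without tumour 2 (0.095).

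Abcc3, another basolateral exporter of glucuronides and bile salts, had 11.13 and 10.92 in the controls and 11.28, 11.44 and 10.98 in the tumours. The groups overlapped, and the change of 0.21 did not pass (limma adjusted p = 0.545); its interval of −0.22 to 0.64 does not reach 1 unit. Abcc10, a drug exporter, stood at −0.08 (adjusted p = 0.816). Abcc6, through which hepatocytes release ATP and so supply the mineralisation inhibitor pyrophosphate, had 8.99 and 9.37 in the controls and 7.20, 7.05 and 6.07 in the tumours. It fell by 2.41 (SE 0.36; interval −3.28 to −1.53; limma adjusted p = 0.0142), with tumour 3 the lowest.

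Abcc4, Abcc1 and Abcb1a are among the known targets of the oxidant-responsive factor NRF2, encoded by Nfe2l2. All 3 are risen members, and no list of NRF2 targets among the ABC genes was fixed. The 3 therefore do not show how such targets moved as a set. Other exporters of conjugates or drugs were not sorted by whether NRF2 targets them. Of these, Abcc2 (−0.80) and Abcg2 (−1.29) fell, and Abcc3 (0.21) and Abcc10 (−0.08) did not pass. Nfe2l2 rose by 1.20 (limma adjusted p = 0.00823), and Keap1, which holds the factor in check, stood at 0.01 (adjusted p = 0.971). Of 10 measured genes in a list of other NRF2 targets, 7 rose and 0 fell, with a median change of 1.23, against 5.6% of all genes risen. The 3 with the smallest p were Nqo1 (3.12), Srxn1 (2.87) and the cystine transporter Slc7a11 (6.53, or 6.09 with its dim controls set at their arrays' lower quartile of 4.34). In the 3 tumours the list's median stood at 1.20, 1.22 and 1.18. NRF2 binds the antioxidant response element, and its core was searched as TGACNNNGC on both strands in the 250 bases before each RefSeq start site. Such windows were used for 37 of the 47 genes, and those of Abcc4, Abcc2 and Abcc10 held the core, among them both start sites of Abcc4. Of the 43 member windows 9.3% held it, against 10.2% of 32851 windows of all genes. The windows with the core are shown for Abcc4, which rose, and Abcc2, which fell. That of Abcc10, which did not pass, is not shown. They are given on the strand of the gene (GRCm38.p6, minus strand for Abcc4, plus strand for Abcc2), with the match to either strand in capitals.
Abcc4 at chr14:118706220-118706469: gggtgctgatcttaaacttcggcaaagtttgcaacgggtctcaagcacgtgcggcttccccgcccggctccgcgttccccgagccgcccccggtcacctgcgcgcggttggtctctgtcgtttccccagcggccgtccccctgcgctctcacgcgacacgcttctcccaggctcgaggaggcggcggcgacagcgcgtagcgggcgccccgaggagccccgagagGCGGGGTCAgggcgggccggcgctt
Abcc4, second start, at chr14:118676932-118677181: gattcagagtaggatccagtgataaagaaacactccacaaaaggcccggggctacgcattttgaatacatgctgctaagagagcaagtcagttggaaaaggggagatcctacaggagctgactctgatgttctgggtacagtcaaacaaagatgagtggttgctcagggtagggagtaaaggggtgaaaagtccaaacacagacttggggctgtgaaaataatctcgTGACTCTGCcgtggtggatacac
Abcc2 at chr19:43782058-43782307: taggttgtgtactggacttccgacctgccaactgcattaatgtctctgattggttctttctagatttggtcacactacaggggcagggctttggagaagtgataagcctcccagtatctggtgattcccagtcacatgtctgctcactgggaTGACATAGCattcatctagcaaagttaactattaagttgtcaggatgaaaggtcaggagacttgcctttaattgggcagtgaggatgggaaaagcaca
The matches begin 25 and 23 bases before the Abcc4 start sites and 98 bases before that of Abcc2. A match is a description of the letters, and no binding was measured here. The part of NRF2 in the values of Abcc4, Abcc1 and Abcb1a was not tested.

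Among the 5 sterol transporters 1 rose, against 5.6% of all genes, and 4 did not pass, with a median change of −0.14. Abcg1, which moves cellular cholesterol to high-density lipoprotein and is abundant in macrophages, had 6.65 and 6.98 in the controls and 8.43, 8.18 and 8.87 in the tumours. It rose by 1.68 (SE 0.23; interval 1.11 to 2.25; limma adjusted p = 0.0117). Abca1, which loads cholesterol and phospholipid onto apolipoprotein A-I, had 9.84 and 9.86 in the controls and 10.25, 9.91 and 10.29 in the tumours. The tumours were above the controls by little, and the change of 0.30 did not pass (interval −0.09 to 0.68; limma adjusted p = 0.317). Abcg4, a transporter of the nervous system, stood at −0.14 (adjusted p = 0.57).

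Abcg5 and Abcg8, the subunits of 1 canalicular pump that secretes cholesterol and plant sterols into bile, lay lower in all 3 tumours but did not pass. Abcg5 had 9.83 and 9.31 in the controls and 8.48, 8.41 and 7.11 in the tumours, a change of −1.57 (interval −2.66 to −0.49; limma adjusted p = 0.083). Abcg8 had 9.79 and 9.61 in the controls and 8.42, 7.95 and 6.49 in the tumours, a change of −2.08 (interval −3.42 to −0.75; limma adjusted p = 0.0674). In both genes tumour 1 was the least and tumour 3 the most reduced. Without tumour 3, Abcg5 stood at −1.13 (limma adjusted p = 0.0192) and Abcg8 at −1.52 (adjusted p = 0.007), and both passed. Without tumour 1, Abcg8 passed at −2.49 (adjusted p = 0.0379) and Abcg5 did not, at −1.81 (0.0739). Neither gene passed without tumour 2, at −1.78 for Abcg5 (0.111) and −2.25 for Abcg8 (0.118). The genes are neighbours on chromosome 17 and are read away from each other. Between the RefSeq start site taken for Abcg5 and the nearest start site of Abcg8 lie 109 bases. The stretch between the starts, shown because both genes are read from it, is given on the minus strand of GRCm38.p6, 5′ to 3′ toward Abcg5, with the letters TATAAA in capitals.
Abcg5 and Abcg8 at chr17:84683012-84683120: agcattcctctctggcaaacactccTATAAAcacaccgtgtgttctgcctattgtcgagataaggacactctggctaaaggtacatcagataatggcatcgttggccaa
The capitals begin 84 bases before the Abcg5 start. TATAAA, searched on both strands, occurred in 12.4% of the windows of 250 bases of all genes. The windows of Abcg5 and Abcg8 both take in this stretch, so the same match is counted for both genes.

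Abca1, Abcg1, Abcg5 and Abcg8 are all known targets of the liver X receptors, which sense oxysterols. With those 4, a list of 11 such genes had 2 risen, 2 fallen and 7 that did not pass, with a median of −0.08; of all genes tested 5.6% rose and 4.96% fell. Lpl, lipoprotein lipase, rose by 2.59 (limma adjusted p = 0.00747), and Nr1h3, which encodes liver X receptor alpha, fell by 0.93 (adjusted p = 0.0181). Of 9 measured genes of cholesterol and lipoprotein handling, 1 rose and 2 fell, on the same background of 5.6% and 4.96%: Npc2, a lysosomal cholesterol carrier, rose by 0.80 (adjusted p = 0.0182), Insig1, which restrains sterol synthesis, fell by 1.12 (adjusted p = 0.0156), and Lcat, the plasma enzyme that esterifies cholesterol, fell by 1.69 (adjusted p = 0.0447). Macrophage markers were higher beside Abcg1. Of 11 such markers 6 rose and 1 fell, against 5.6% and 4.96% of all genes. Their summed level lay at 9.92 and 10.33 in the controls and between 11.55 and 12.36 in the tumours (log2 of the sum of unlogged values), and the median change was 2.10. Cd68 rose by 3.02 and the scavenger receptor gene Cd163 fell by 2.20 (limma adjusted p = 0.00406 and 0.00563). No macrophage marker lay below the lower quartile of the arrays in both groups. Abcg1 was highest in tumour 3 and lowest in tumour 2, the same order as the summed level. The part of macrophages in the Abcg1 value was not tested.

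Of the 6 organelle transporters, 2 fell, against 4.96% of all genes, 0 rose and 4 did not pass, with a median change of −0.29. Abcb10, an inner mitochondrial membrane transporter needed for haem synthesis, had 7.52 and 7.72 in the controls and 6.34, 6.36 and 6.25 in the tumours. The tumours lay within 0.10 units of each other, and it fell by 1.30 (SE 0.13; interval −1.62 to −0.99; limma adjusted p = 0.00455). Abcb6, a porphyrin transporter, had 9.39 and 9.48 in the controls and 8.74, 8.81 and 8.41 in the tumours, and it fell by 0.78 (SE 0.16; limma adjusted p = 0.0364). This call ended without tumour 1 (adjusted p = 0.0566) or tumour 2 (0.0591). In a list of 15 measured genes of peroxisomes, haem and iron-sulphur clusters, 1 fell and 0 rose, a share near the 4.96% of all genes fallen, with a median of −0.48. The fallen gene was Slc25a38, the mitochondrial glycine carrier of haem synthesis (−0.997, adjusted p = 0.0233).

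The other mitochondrial and lysosomal members did not pass. Abcb8, of the mitochondrial inner membrane, stood at −0.23 (limma adjusted p = 0.472), Abcb9, a lysosomal peptide transporter, at 0.10 (0.748), and Abcd4, which takes part in the release of vitamin B12 from lysosomes, at −0.35 (0.162). Abcd2, a peroxisomal importer of very long chain acyl-CoA, differed within both groups, at 7.21 and 5.37 in the controls and 8.39, 8.01 and 6.34 in the tumours. The groups overlapped, the 2 controls differed by 1.84 units, and the change of 1.30 had an interval of −0.57 to 3.17 (limma adjusted p = 0.368). It was 2.22 without control 1 and 0.38 without control 2, neither of which passed.

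**Figure D4:**
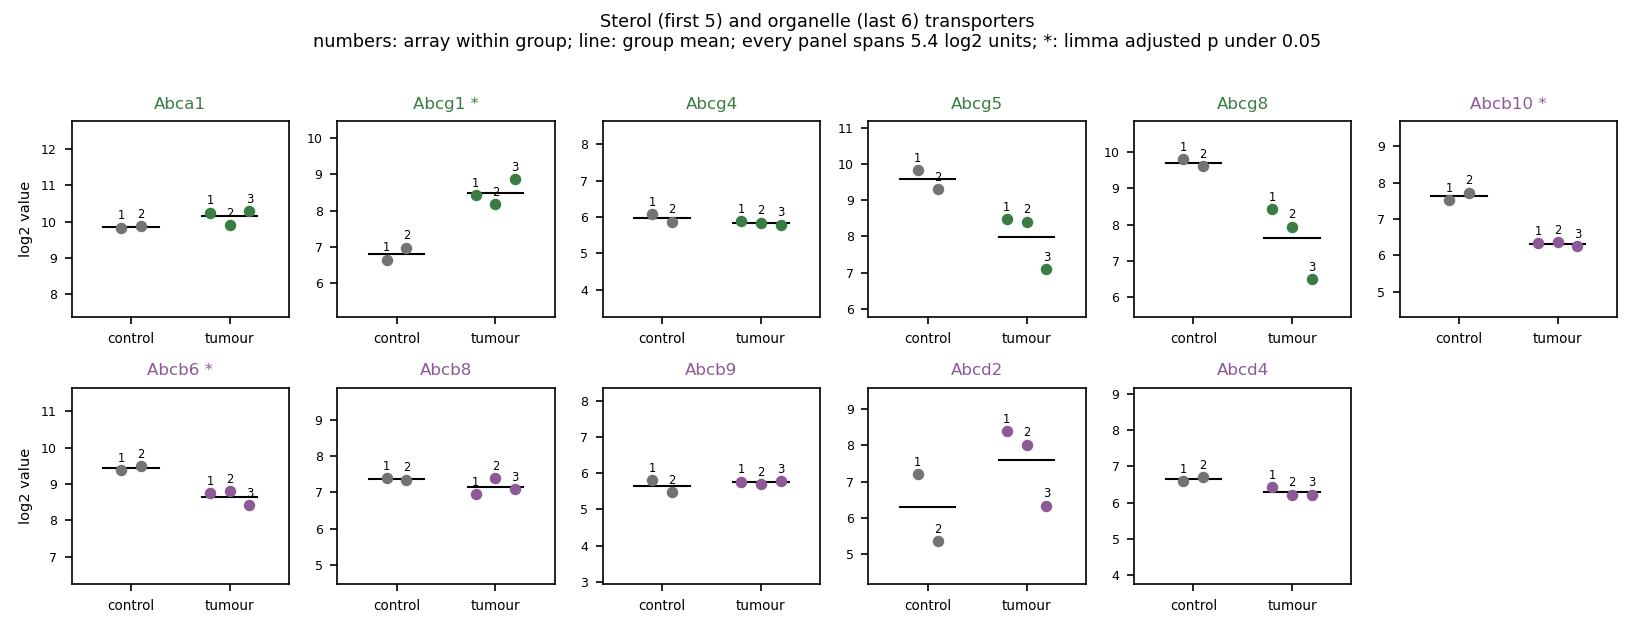
Log2 value of each sterol gene (first 5 panels) and organelle gene (last 6 panels) on the 5 arrays, controls in grey and tumours in colour, numbered by array, with group means as lines. Abcg5 and Abcg8 are lowest in tumour 3 (7.11 and 6.49), the tumour points of Abcb10 lie within 0.10 of each other, and the 2 controls of Abcd2 lie 1.84 apart.

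Of the 15 other members of subfamily A, which mostly move lipids, 1 fell, 0 rose and 14 did not pass. The fallen share was near the 4.96% of all genes fallen. In both groups, 4 of the 15 lay below the lower quartile of the arrays. Abca8a had the largest fall of the family, with 9.05 and 9.61 in the controls against 7.08, 5.78 and 5.69 in the tumours. It fell by 3.14 (SE 0.45; interval −4.25 to −2.04; limma adjusted p = 0.0128), or 8.83-fold. It lies in a run of 5 A-subfamily genes with no other gene between them in the RefSeq order on chromosome 11: Abca8b, Abca8a, Abca9, Abca6 and Abca5. Abca6 had 10.38 and 10.49 in the controls and 9.14, 8.25 and 5.54 in the tumours, the widest tumour range of the family at 3.60 units, and its change of −2.79 did not pass (limma adjusted p = 0.149). Without tumour 3, the lowest, the Abca6 change was −1.74 and passed (limma adjusted p = 0.0167). It did not pass without tumour 1 (0.067) or without tumour 2 (0.205). Without tumour 1, Abca8b (−1.66, adjusted p = 0.0269) and Abca5 (0.77, adjusted p = 0.0423) passed. Neither of these 2 passed without tumour 2 (0.065 and 0.108) or without tumour 3 (0.074 and 0.064). With all arrays Abca8b stood at −1.37 (0.0651), while Abca9 stood at 0.84 (0.0911) and Abca5 at 0.67 (0.0546). In this run of neighbours, all 3 tumours lay below both controls for Abca8b, Abca8a and Abca6, and above both for Abca9 and Abca5. The groups likewise did not overlap for 44.2% of all genes, and of this run only Abca8a passed with all arrays. Abca8a and Abca8b are near copies, so probes may share signal between them. The remaining 10 members of this group had changes between −0.79 (Abca3) and 0.38 (Abca7).

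**Figure D5:**
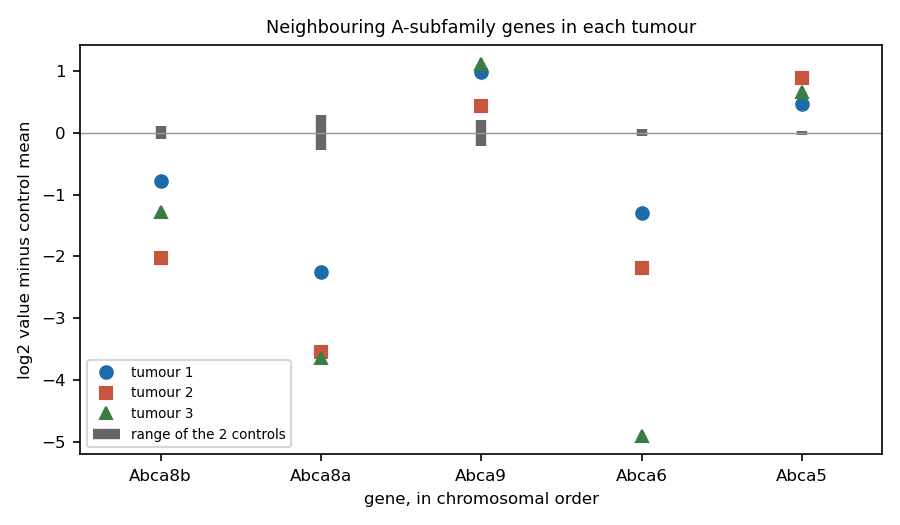
Log2 value of each tumour minus the control mean for 5 neighbouring A-subfamily genes, in their order on chromosome 11, with the range of the 2 controls as grey bars. Tumour values lie below the bar for Abca8b, Abca8a and Abca6 and above it for Abca9 and Abca5, and tumour 3 is lowest for Abca6.

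Of the 5 remaining members of subfamilies B, C and G, 1 rose, against 5.6% of all genes. Abcg3, a rodent relative of Abcg2, had 4.03 and 3.83 in the controls and 5.90, 5.80 and 7.12 in the tumours. It rose by 2.34 (SE 0.41; limma adjusted p = 0.0225). Its control mean of 3.93 lay below the lower quartile, and with the controls set at that quartile of 4.34 the difference was 1.94. Macrophage and lymphocyte markers were also highest in tumour 3, the latter with a summed level of 7.57 to 7.69 in the controls, 8.18 in tumours 1 and 2 and 9.83 in tumour 3 (0 of 7 measured markers passed, and 2 lay below the lower quartile in both groups), and their part in the Abcg3 value was not tested. The 4 ribosome-associated members had a median absolute change of 0.14: Abce1, which recycles ribosomes, stood at 0.26, Abcf1 at −0.02, Abcf2 at 0.09 and Abcf3 at −0.20, with adjusted p of at least 0.397. The ABC genes named otherwise, the peptide transporters Tap1 (0.90, adjusted p = 0.254) and Tap2 (0.46, 0.185) and the chloride channel Cftr (−0.39, 0.244), did not pass either.

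The 12 genes of bile acid synthesis in a list fixed around the pumps showed 5 fallen and 0 risen, with a median of −1.67, against 4.96% of all genes fallen. Those with the smallest p were Cyp7b1 (−3.47), Hsd3b7 (−1.70) and Cyp8b1, the 12-alpha-hydroxylase that makes cholic acid, which went from 10.89 and 10.76 to 5.87, 5.09 and 6.79 (−4.91, limma adjusted p = 0.00413). Of 9 genes of uptake, alternative export and canalicular membrane upkeep, 2 fell and 0 rose, against 4.96% and 5.6% of all genes. They were the organic anion carrier Slco1a1 (−7.14) and the bile salt carrier Slc10a2 (−2.84, adjusted p = 0.00224). The tumour means of both lay below the lower quartile of the tumour arrays (4.31), and with the tumours set at that quartile the changes were −5.73 and −2.12. Slc10a1, the main basolateral uptake carrier for bile salts, stood at −1.69 (adjusted p = 0.0588), and Slc51b, a subunit of the basolateral bile salt exporter, at 1.90 (0.0527). Of 15 measured regulators of these genes, 1 rose (Nfe2l2) and 5 fell, on that same background. Besides Nr1h3, the fallen were Nr1h4, Nr1i3 (−4.51, limma adjusted p = 0.0326), Ahr (−1.49, 0.04) and Srebf1 (−1.05, 0.0275), which drives fatty acid synthesis. Nr1h4, the bile acid receptor known to drive Abcb11 and Abcb4, fell by 1.38 (adjusted p = 0.0323). Of 8 measured hepatocyte markers 2 fell, Asgr1 and Ttr, against 4.96% of all genes. The summed level of the 8 was 15.32 and 15.34 in the controls and 14.69 to 15.08 in the tumours. Of 6 measured markers of bile duct cells 0 passed, with a summed level of 7.74 and 7.81 in the controls and 8.35 to 8.86 in the tumours; Cftr lay below the lower quartile in both groups. The part of either cell type in the pump values was not tested.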

How the data were processed

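In all, 5 mouse gene arrays were compared, 2 of control liver and 3 of Hdac3-null liver tumour, grouped by the titles in the labels. The deposited values are log2 expression per probe set, 1 column per array; GCOS and RMA are named for them in the submitters' processing notes, without version or role. For the genome build, none is named there. Of 28853 probe sets, 21789 had 1 symbol in the platform's gene table, 1621 several and 5443 none; the last 2 kinds were left out. All 47 symbols and gene identifiers were found in RefSeq's table for GRCm38.p6, which gave gene order and promoter sequences only.

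Tumour minus control was fitted by limma 3.58.1 (lmFit, eBayes; R 4.3.3) on all 5 arrays without covariate or filter, with 3 residual and 2.98 prior degrees of freedom, two-sided, adjusted by Benjamini-Hochberg over 19938 genes. With 2 arrays against 3, the smallest two-sided p of an exact permutation test is 0.1, so calls rest on limma. The number of arrays limits the precision. Genes named are all canalicular, basolateral, sterol and organelle members, every other called member, and up to 3 called genes of each list with the smallest p. Others named (Keap1, Slc10a1, Slc51b, Tap1, Tap2, Cftr, Cd68, Cd163, Abcc9, the uncalled members of subfamilies A, E and F, Nr1h4, Nr1i3, Ahr and the cell markers) were chosen after their values were seen. Members and lists were chosen with earlier results of these data known. Figures were drawn with matplotlib 3.10.9 in Python 3.11.15. No column of another sample was present.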

Additional observations from a re-analysis of the deposited data

How the results depend on the processing

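Over 25 named members and 12 alternatives, 253 of 298 recomputed changes kept their direction and side of the threshold, 27 lost a call, 15 gained one and 3 turned in sign. The turned values were those of Abcc10 (0.027 with the replicate block, and −0.16 to 0.027 with 1 array left out) and Abcb9 (−0.066 to 0.26 with 1 array left out), both near 0. With 1 array left out in turn, risen members numbered 2 to 7, fallen members 0 to 9 and the percent of all genes called 0.542 to 13.6; the lowest values came without control 1 or control 2, where the spread of the 1 control left is taken from the tumours and the fit had fewer arrays. The median change of the sterol genes moved from −0.14 to −0.22 on repeated quantile normalisation, to −0.20 on a shift to a common median, and between −0.25 and −0.039 with 1 array left out. With the dimmest 40% of genes removed, 17.9% of all genes were called, the canalicular median went to −0.80 since Abcb1b was removed, and Abca5 was called in place of Abcg3, which was removed. With array weights, 8 members were called risen and 11 fallen, and 16.3% of all genes were called. Abcb11, Abcc5, Abcg5, Abcg8, Abca2, Abca5 and Abca8b passed there, and the cause was not tested. The replicate numbers pair no samples by the labels. The number was also used as a replicate block, which leaves tumour 3 in a block of its own and so out of the estimate. With it 8 members were called risen and 10 fallen, and 11.9% of all genes were called. Abcd2 (1.92, limma adjusted p = 0.0307), Abca6, Abcb11, Abcc5, Abcg5 and Abcg8 passed there. All 12 called members were also called with array weights and with the replicate block.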

Other observations

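Of the 47 ABC genes, 11 had tumour values that ranged over at least 1 log2 unit. In 8 of these 11 tumour 3 was the lowest (Abcb11, Abcc6, Abcg5, Abcg8, Abcd2, Abca6, Abca8a and Abcc9) and in 2 it was the highest (Abcc5 and Abcg3). The same shares over all genes were not computed, so these counts do not show a trait particular to the ABC genes. Abcc9, the sulphonylurea receptor subunit of potassium channels in muscle and pericytes, had 7.72 and 7.69 in the controls and 9.15, 6.75 and 6.71 in the tumours. Its group change was −0.17 (limma adjusted p = 0.93), with tumour 1 above and tumours 2 and 3 below both controls. Without tumour 1 the change was −0.97 (adjusted p = 0.017). Without tumour 2 (0.23) or tumour 3 (0.25) it did not pass. Markers of stellate cells and fibroblasts had medians of 1.64, 0.71 and 0.21 above the control mean in tumours 1, 2 and 3, and those of endothelium 0.98, 0.21 and −0.93. Of these markers 1 of 8 and 0 of 8 passed the test, and their part in the Abcc9 values was not tested.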
